A study of Mus musculus with 6 samples.

Results

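The 10 genes described here encode the machinery by which an intestinal crypt cell receives a Wnt signal and holds back or releases beta-catenin. They are the R-spondin receptor gene Lgr4, the frizzled turnover genes Rnf43 and Znrf3, the frizzled receptor genes Fzd5 and Fzd7, the co-receptor genes Lrp5 and Lrp6, the ligand gene Wnt3, the beta-catenin gene Ctnnb1 and the scaffold gene Apc. The members were listed by name with no measured value in the rule, but with earlier results of these data known, and all 10 were found among the 24736 gene symbols of the deposited table. Crypt RNA of 3 WT and 3 Mtg16 KO mice, named by their labels, was compared with 1 library per mouse. All 6 mice were males of 12 weeks, and crypt epithelium was released from the whole length of the gut in 2 mM EDTA within 30 minutes. The labels list no treatment for WT mice and a CRISPR induced knock-out for the others, whereas the study's methods describe Mtg16-/- mice supplied by another group, and this difference was not resolved. The mutation was carried by the whole animal, so cells other than crypt epithelium lacked the gene as well.

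Wnt ligands bind a frizzled receptor together with LRP5 or LRP6. In the absence of a ligand, a destruction complex built on APC and axin phosphorylates beta-catenin and marks it for degradation, and ligand binding stops that activity, so that beta-catenin accumulates and acts with TCF factors on target genes. RNF43 and ZNRF3 are membrane ubiquitin ligases that remove frizzled receptors from the cell surface. R-spondins, bound by LGR4 or LGR5, clear these ligases and so leave more receptors in place, and RNF43, ZNRF3, AXIN2 and LGR5 are themselves known products of Wnt target genes. In the mouse small intestine this pathway maintains the stem cells of the crypt base, and Paneth cells are an epithelial source of WNT3. MTG16 is a transcriptional co-repressor that can bind TCF factors, which is why the genotype comparison bears on this pathway.

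Expression was given as TPM, a transcript abundance that is adjusted for length and given as a part of an equal total per library, so levels can be compared between genes but the read depth is unknown. Differences were tested with limma's moderated test on log2(TPM + 1) over 12268 genes whose TPM averaged 1 or more, and a gene was called when its Benjamini-Hochberg adjusted p was under 0.1. Log2 fold changes are given as Mtg16 KO minus WT on this scale. Cbfa2t3, which encodes MTG16, had TPM values of 3.67, 6.69 and 4.52 (WT) against 4.62, 6.43 and 3.23 (labelled Mtg16 KO), so its gene-level value did not tell the groups apart. A sum over all exons cannot show whether 1 exon is missing, and every direction below rests on the labels. Any pair of libraries correlated across genes with a Pearson's r of 0.931 to 0.980. The epithelial genes Krt19, Krt8 and Epcam led a list of 11 epithelial markers with a summed TPM of 10811 to 13492. Of 13 mesenchymal markers, the 3 with the highest levels were Vim, Pdgfrb and Myh11, the fibroblast genes Lum and Foxl1 were listed at 0 in all 6 libraries, and the summed TPM of the list was 14.2 to 19.4 in WT and 15.7 to 22.4 in Mtg16 KO. The summed TPM of 11 endothelial and immune markers, led by Cd3e, Itgam and Cd8a, was 57.1 to 99.99 in WT and 35.1 to 77.4 in Mtg16 KO.

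All 10 members were above the level needed for the test, and none of them was called. The background was 4 called genes among 12268, or 0.0326%, with 0.0163% in each direction. At an unadjusted p under 0.05, 3 of the 10 members (Lgr4, Rnf43 and Wnt3) had higher means in the Mtg16 KO group and none had a lower mean. Of all tested genes, 14.6% passed that limit, 6.53% with higher and 8.05% with lower means. The groups did not overlap in 3 members, Lgr4 and Rnf43 above WT and Lrp5 below it, where 21.0% of all tested genes had groups that did not overlap. The median log2 fold change of the 10 members was 0.04, with 5 values above and 5 below 0, and that of all tested genes was -0.03, with 46.4% above 0. The values below therefore describe levels in 6 mice.

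Ctnnb1 had the highest level of the 10 members, with a mean TPM of 355 over the 6 libraries, and Wnt3 the lowest, with 4.18. Between them, in falling order, lay Fzd5 at 108, Lgr4 at 79.8, Lrp5 at 59.7, Lrp6 at 36.03, Rnf43 at 31.4, Apc at 26.6, Fzd7 at 11.4 and Znrf3 at 9.21 TPM. The ranges over the 6 libraries were apart between Ctnnb1 and Fzd5, between Lrp5 and Lrp6 and between Apc and Fzd7. All other neighbours in this order overlapped in their ranges. Within every single library, however, Fzd7 stood above Znrf3 and Znrf3 above Wnt3. The order of the remaining overlapping neighbours changed between libraries and is not resolved by them.

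**Figure D1:**
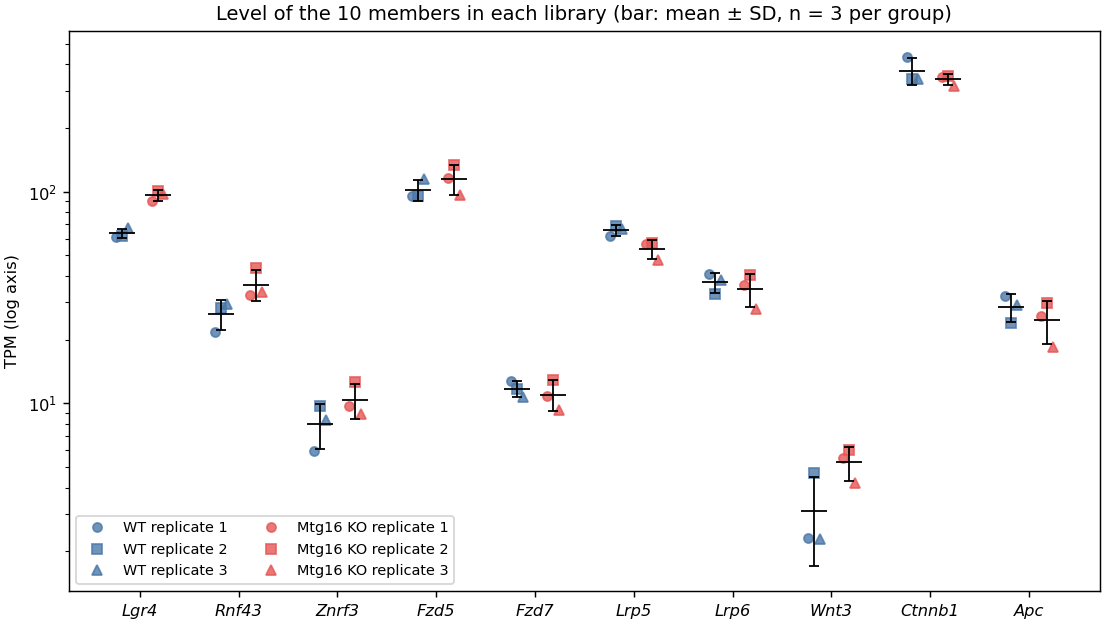
TPM of each member (log axis) in the 3 WT libraries (blue) and the 3 Mtg16 KO libraries (red), with symbols for replicate numbers and bars for the mean ± SD. The 3 Mtg16 KO values of Lgr4 (90.0 to 101) sit above the 3 WT values (61.2 to 67.4), while the groups overlap in 7 of the 10 genes.

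Lgr4 encodes the R-spondin receptor that most crypt cells carry. It lies on chromosome 2 of GRCm38 from 109917647 to 110014257. Its TPM was 61.2, 61.9 and 67.4 in WT and 90.0, 101 and 97.4 in Mtg16 KO, a mean of 63.5 ± 3.36 (SD, n = 3) against 96.1 ± 5.49 (SD, n = 3). The lowest Mtg16 KO value lay above the highest WT value, and the gap between the groups was wider than the range within either. This gave a log2 fold change of 0.59 (standard error 0.11, 95% interval 0.33 to 0.85, limma adjusted p = 0.170). With array weights, which weight each library by its variability and under which 6.97% of all tested genes were called, Lgr4 and Wnt3 fell under the threshold (limma adjusted p = 0.0336 and 0.0989). With the replicate number as a block, an alternative under which 9.79% were called, Lgr4 did so (limma adjusted p = 0.0282) and Wnt3 did not. Lgr4 ranked 54th of the 12268 tested genes by p-value and 1200th by the size of its change. A two-sided exact permutation test gave p = 0.1, the smallest that 3 mice against 3 allow. Among the 3 Lgr receptor genes of this family, Lgr4 supplied 88.4% to 91.1% of the summed TPM in WT and 83.3% to 90.7% in Mtg16 KO.

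Rnf43 and Znrf3 encode the paired ligases that LGR4 and R-spondin act against. Both are on chromosome 11, Znrf3 from 5276329 to 5444847 and Rnf43 from 87663087 to 87735539, with 82.2 Mb between them. Rnf43 had a TPM of 21.7, 28.3 and 29.5 in WT and of 32.4, 43.3 and 33.4 in Mtg16 KO. Its groups did not overlap, although the gap between 29.5 and 32.4 was smaller than the range within either group. For Rnf43 this was a difference of 0.44 in log2(TPM + 1) (standard error 0.17, 95% interval 0.05 to 0.83, limma adjusted p = 0.311). Znrf3 had a TPM of 5.94, 9.72 and 8.33 in WT and of 9.75, 12.6 and 8.90 in Mtg16 KO. Its groups overlapped, since WT replicate 2 lay above Mtg16 KO replicate 3. For Znrf3 it was 0.35 (standard error 0.21, 95% interval -0.13 to 0.84, limma adjusted p = 0.446). For both ligase genes WT replicate 1 held the lowest value and Mtg16 KO replicate 2 the highest. Without WT replicate 1 the log2 fold change was 0.31 for Rnf43 and 0.18 for Znrf3.

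Because these genes act on one another's products, their levels were also compared as ratios within each library, which do not depend on the scaling of the library. Lgr4 stood at 2.22, 1.63 and 1.78 times the summed TPM of Rnf43 and Znrf3 in WT and at 2.14, 1.80 and 2.30 times in Mtg16 KO. The groups overlapped, with a log2 difference of 0.15 (two-sided exact permutation test, p = 0.4, or 0.72 after Benjamini-Hochberg adjustment over 6 ratios). Relative to Rnf43, Znrf3 stood at 0.300 ± 0.0383 in the 3 WT libraries and at 0.286 ± 0.0179 in the 3 Mtg16 KO libraries (mean ± SD), a log2 difference of -0.06 (exact permutation test, p = 0.8, adjusted 0.8).

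The 250 bases before the RefSeq start are shown for Lgr4, Rnf43 and Wnt3, the 3 members with an unadjusted p under 0.05, so that their start regions can be compared. All are written 5′ to 3′ on the strand of the gene, from RefSeq on GRCm38.p6. They cover chr2:109917397-109917646, chr11:87662837-87663086 and chr11:103773925-103774174, all on the plus strand, and Rnf43 has another RefSeq start farther into the gene that is not printed. Capitals mark the letters CCAAT, read on both strands, and the octamer ATTTGCAT.
Lgr4: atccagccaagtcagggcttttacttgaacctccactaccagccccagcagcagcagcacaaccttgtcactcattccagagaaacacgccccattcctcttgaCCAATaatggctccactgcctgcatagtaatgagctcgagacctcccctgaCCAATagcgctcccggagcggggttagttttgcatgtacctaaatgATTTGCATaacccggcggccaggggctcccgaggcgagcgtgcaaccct
Rnf43: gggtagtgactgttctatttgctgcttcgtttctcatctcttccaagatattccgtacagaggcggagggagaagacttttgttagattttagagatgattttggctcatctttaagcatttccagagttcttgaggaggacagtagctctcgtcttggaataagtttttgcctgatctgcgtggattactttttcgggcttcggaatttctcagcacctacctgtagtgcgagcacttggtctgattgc
Wnt3: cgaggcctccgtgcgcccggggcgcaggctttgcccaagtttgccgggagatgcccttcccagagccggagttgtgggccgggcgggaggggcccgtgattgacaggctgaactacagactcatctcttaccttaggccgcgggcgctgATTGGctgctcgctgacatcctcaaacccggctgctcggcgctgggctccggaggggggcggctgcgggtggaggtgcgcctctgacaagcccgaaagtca

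The motifs were chosen after the window of Lgr4 had been read. That window held CCAAT at 2 positions, from 146 to 142 and from 95 to 91 bases before the start, and the octamer from 49 to 42 bases before it. CCAAT occurred in 33.8% of the 32851 windows of the same length over all RefSeq starts, and ATTTGCAT in 1.60%. The window of Wnt3 held CCAAT once, read on the other strand, and the window of Rnf43 held neither motif. Among the windows that are not printed, that of Fzd5 held CCAAT at 1 position. That of Fzd7 and the first window of Ctnnb1 held it at 2 positions each, so CCAAT was not particular to the printed windows. The TCF/LEF letters CTTTGAT and CTTTGAA, found in 3.21% and 4.46% of all windows, and the E-box form CAGCTG, found in 13.0%, were searched on both strands and were in none of the 8 windows available for 6 members, Lgr4, Rnf43, Fzd5, Fzd7, Wnt3 and Ctnnb1. A GC content of 55.6% in Lgr4, 44.4% in Rnf43 and 68.0% in Wnt3 compared with a median of 52.4% over all windows. The general E-box CANNTG, with N for any base, was found in 66.2% of all windows. It was in the printed window of Rnf43, from 16 to 11 bases before the start, and in the window of Fzd5, which is not printed, from 20 to 15. These matches describe letters in a short window and do not locate a bound site.

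Fzd5 and Fzd7 encode the frizzled receptors of this set. FZD7 is known as a receptor of crypt base stem cells and FZD5 for its part in Paneth cell maturation. The genes lie on chromosome 1, Fzd7 from 59482147 to 59486955 and Fzd5 from 64730558 to 64737750. Fzd5 had a TPM of 95.5, 95.04 and 115 in WT and of 116, 133 and 96.0 in Mtg16 KO. WT replicate 3 lay above Mtg16 KO replicate 3, so the groups overlapped, and the log2 fold change was 0.17 (standard error 0.15, 95% interval -0.19 to 0.52, limma adjusted p = 0.615). Without Mtg16 KO replicate 2 this was 0.057, and without Mtg16 KO replicate 3 it was 0.29. Fzd7 had a TPM of 12.8, 11.7 and 10.8 in WT and of 10.8, 12.9 and 9.29 in Mtg16 KO. Its highest and its lowest value were both in the Mtg16 KO group, and the log2 fold change was -0.10 (standard error 0.16, 95% interval -0.46 to 0.27, limma adjusted p = 0.796).

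Fzd5 dominated the frizzled family in every library. It supplied 76.6% to 80.9% of the summed TPM of the 10 frizzled genes, and Fzd7 a further 7.46% to 10.4%. The highest value of any other frizzled gene in any library was a TPM of 6.09. As a ratio to Fzd5, Fzd7 stood at 0.117 ± 0.0208 (WT) and 0.0957 ± 0.00219 (Mtg16 KO), each the mean ± SD of 3 libraries. The WT ratios ran from 0.0939 to 0.134, and their lower end overlapped the Mtg16 KO range of 0.0931 to 0.0971. The log2 difference of this ratio was -0.28 (two-sided exact permutation test, p = 0.3, adjusted 0.72).

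Lrp5 and Lrp6 encode the co-receptors that recruit axin when a ligand is bound. Lrp5, on chromosome 19 from 3584825 to 3686585, had a TPM of 61.5, 69.0 and 66.6 in WT and of 56.5, 57.4 and 47.3 in Mtg16 KO. All 3 Mtg16 KO values lay below the WT values, and Mtg16 KO replicate 3 was the lowest. Lrp5 differed by -0.29 in log2(TPM + 1) (standard error 0.12, 95% interval -0.58 to 0.00034, limma adjusted p = 0.343), and after quantile normalization its groups overlapped. Lrp6, on chromosome 6 from 134446476 to 134566913, had a TPM of 40.7, 32.8 and 38.3 in WT and of 36.3, 40.2 and 27.9 in Mtg16 KO. Its groups overlapped over most of their range, with a log2 fold change of -0.11 (standard error 0.16, 95% interval -0.49 to 0.27, limma adjusted p = 0.774). The ratio of Lrp6 to Lrp5 was 0.571 ± 0.0929 (WT) and 0.644 ± 0.0549 (Mtg16 KO, mean ± SD of 3 libraries each), so Lrp5 was the more abundant co-receptor transcript in both groups. The log2 difference of this ratio was 0.18 (exact permutation test, p = 0.4, adjusted 0.72).

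Of the 19 Wnt ligand genes, Wnt3 was the only one whose TPM averaged 1 or more. It lies on chromosome 11 from 103774175 to 103818021, 16.0 Mb from Rnf43. Its TPM was 2.31, 4.69 and 2.29 in WT and 5.53, 6.05 and 4.22 in Mtg16 KO. The groups overlapped through 1 pair of libraries, because WT replicate 2 lay above Mtg16 KO replicate 3. The log2 fold change of 0.65 (standard error 0.26, 95% interval 0.05 to 1.25, limma adjusted p = 0.314) was above that of Lgr4, but below it after quantile normalization (0.66 against 0.68), without WT replicate 1, WT replicate 3 or Mtg16 KO replicate 1, and with the enterocyte score in the model. Adding 1 to such low values understates the difference of Wnt3. With a pseudocount of 0.1 it was 0.81. Wnt3 supplied 43.7% to 63.7% of the summed TPM of the ligand genes in WT and 65.1% to 74.9% in Mtg16 KO, and no other ligand gene passed a TPM of 0.69 in any library. That summed TPM was only 4.45 to 8.08 over the 6 libraries, and the difference in share was not tested.

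Lyz1, the lysozyme gene of Paneth cells, was taken as a marker of the cells known to make WNT3. It belongs to a list of 9 Paneth cell markers whose log2 fold changes ran from 0.12 to 1.68, with 0.92 for Lyz1. A ratio of Wnt3 to another of these markers could therefore differ, and none was tested. Lyz1 had a TPM of 1406, 3304 and 1593 in WT and of 4374, 3389 and 3387 in Mtg16 KO, and WT replicate 2 was the highest WT library for both genes. The ratio of Wnt3 to Lyz1 was 0.00150 ± 0.000124 (WT) and 0.00143 ± 0.000306 (Mtg16 KO), each the mean ± SD of 3 libraries. The log2 difference of -0.08 was smaller than the spread within the Mtg16 KO group (two-sided exact permutation test, p = 0.6, adjusted 0.72). In bulk RNA of this kind, more cells of a type and more RNA per cell cannot be told apart.

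**Figure D2:**
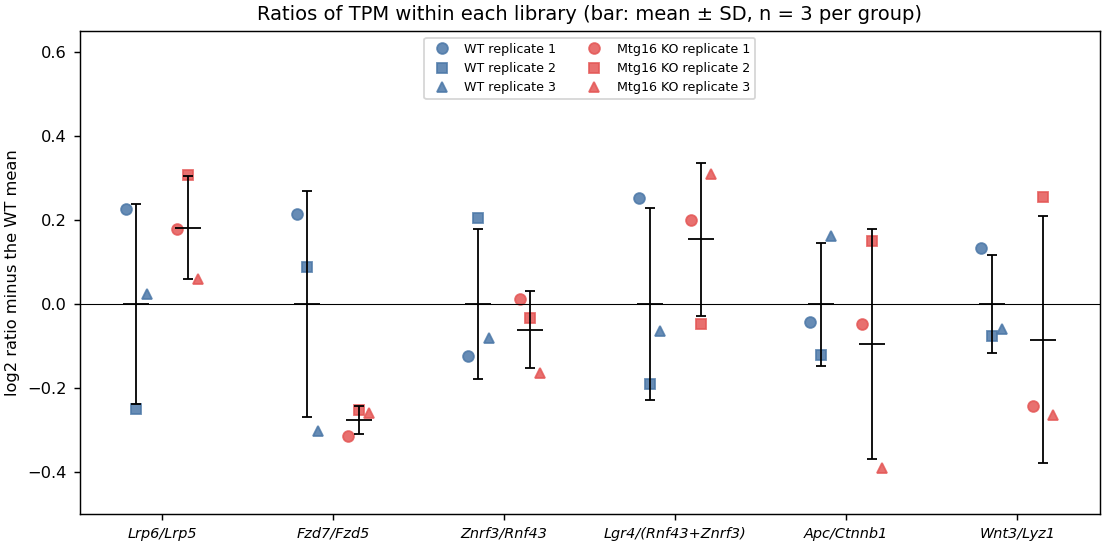
Log2 ratio of TPM within each library, set to 0 at the WT mean, for 6 ratios of members (in the last, of Wnt3 to the Paneth cell gene Lyz1), in WT (blue) and Mtg16 KO (red), with bars for the mean ± SD. The groups overlap in all 6 ratios, and the differences of the group means lie between -0.28 for Fzd7/Fzd5 and 0.18 for Lrp6/Lrp5 (without 1 mouse, from -0.43 to -0.17 and from 0.058 to 0.30).

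Ctnnb1 encodes beta-catenin, which also serves in cell junctions, and its protein level is set mainly by degradation, which RNA does not report. The gene lies on chromosome 9 from 120933400 to 120960507. Its TPM was 433, 340 and 340 in WT and 349, 350 and 315 in Mtg16 KO. WT replicate 1 stood above the other 5 libraries, which spanned 315 to 350. Ctnnb1 differed by -0.13 in log2(TPM + 1) (standard error 0.14, 95% interval -0.46 to 0.21, limma adjusted p = 0.694), and without WT replicate 1 it was -0.01.

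Apc encodes the scaffold of the destruction complex and lies on chromosome 18 from 34220297 to 34322190. Its TPM was 32.3, 24.0 and 29.3 in WT and 26.0, 29.9 and 18.5 in Mtg16 KO. The groups overlapped, and Mtg16 KO replicate 3 was the lowest library. Apc differed by -0.21 in log2(TPM + 1) (standard error 0.20, 95% interval -0.67 to 0.24, limma adjusted p = 0.620), and without Mtg16 KO replicate 3 it was -0.02. Relative to Ctnnb1, Apc stood at 0.0770 ± 0.00796 (WT) and 0.0728 ± 0.0134 (Mtg16 KO, mean ± SD of 3 libraries each), a log2 difference of -0.09 (exact permutation test, p = 0.6, adjusted 0.72).

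**Figure D3:**
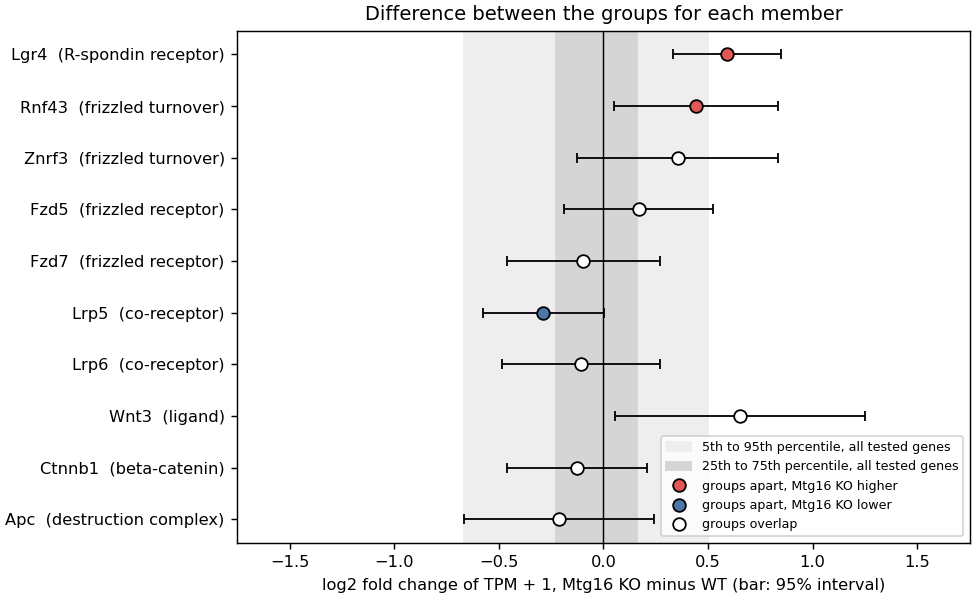
Log2 fold change of each member, Mtg16 KO minus WT, with its 95% interval from limma, over grey bands for the middle 50% and 90% of all tested genes, with filled points where the groups do not overlap (red higher, blue lower in Mtg16 KO). Lgr4 (0.59), Wnt3 (0.65) and Rnf43 (0.44) have intervals above 0, the interval of Lrp5 ends at 0.00034, and the intervals of the other 6 members include 0.

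The remaining genes of the pathway were taken from 4 lists that hold 75 genes besides the members, of which 39 were tested. None was called (4 of 12268 tested genes were, 0.0326%). However, Wls, Lgr5, Axin2, Dvl1 and Gsk3a fell under the threshold when libraries were weighted by their variability (array weights), where 6.97% of all tested genes did. They also did so with the replicate number as a block, an alternative where 9.79% of all tested genes did. At an unadjusted p under 0.05, 3 of the 39 had higher and 3 lower means in the Mtg16 KO group, against 6.53% and 8.05% of all tested genes. The groups did not overlap in 8 of the 39, 4 in each direction, where the background was 9.94% higher and 11.1% lower. Their median log2 fold change was 0.01.

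Among R-spondins and their receptors, 4 of 9 genes were tested, namely Lgr4, Lgr5, Rnf43 and Znrf3, with log2 fold changes between 0.35 and 0.83 and a median of 0.52. Lgr5, the receptor gene that marks crypt base stem cells, had a TPM of 6.02, 8.16 and 7.33 in WT and of 12.1, 20.2 and 9.94 in Mtg16 KO (limma adjusted p = 0.266). Its groups did not overlap, and Mtg16 KO replicate 2 stood above the other 5 libraries. The genes of the R-spondins, which are made mainly by stromal cells, stayed at or below a TPM of 0.20, and Rspo2 and Lgr6 were listed at 0 in every library.

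Wls encodes the carrier that brings Wnt proteins to the cell surface and was the one tested gene of ligand secretion and inhibition whose groups did not overlap. Over all tested genes, 21.0% had groups that did not overlap. Its TPM was 18.3, 24.9 and 20.0 in WT and 35.2, 39.6 and 38.4 in Mtg16 KO. The gap between the groups was wider than the range within either, and the difference was 0.82 in log2(TPM + 1) (standard error 0.14, limma adjusted p = 0.141), ranked 39th by p-value among the 12268 genes. Of the 33 genes of this list 6 were tested, with a median log2 fold change of -0.03. Besides Wls and Wnt3 these were Kremen1 at 0.05, Sfrp5 at -0.25, Kremen2 at -0.25 and Porcn at -0.11 on the log2 scale, all with overlapping groups. Wnt2, Wnt3a, Wnt7a, Wnt8b, Wnt16 and Dkk1 were listed at 0 in every library.

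Of the 27 genes of the destruction complex, dishevelled and beta-catenin turnover, 26 were tested, and their median log2 fold change was -0.01. Axin2, an axin gene and Wnt target, had a TPM of 53.3, 74.2 and 82.5 in WT and of 103, 132 and 96.9 in Mtg16 KO, with groups that did not overlap (limma adjusted p = 0.263). In the other direction, Dvl1, a dishevelled gene that relays the signal from frizzled, had a TPM of 57.3, 47.9 and 48.5 in WT and of 39.0, 38.3 and 34.2 in Mtg16 KO, which is -0.45 in log2(TPM + 1) (standard error 0.13, limma adjusted p = 0.263). Gsk3a, a kinase gene of the complex, had a TPM of 118, 93.5 and 106 in WT and of 87.3, 77.7 and 78.4 in Mtg16 KO, which is -0.37 in log2(TPM + 1) (standard error 0.13, limma adjusted p = 0.288). Both had groups that did not overlap, as did Ctnnbip1, an inhibitor of beta-catenin, at -0.22. Of the 26 tested genes, 1 was thus higher and 3 were lower without overlap, where 9.94% and 11.1% of all tested genes were. The abundant genes Ppp2ca, Csnk1a1, Ppp2r1a and Csnk1g2, which encode phosphatase subunits and casein kinases, had overlapping groups and log2 fold changes of 0.11, 0.15, 0.15 and 0.09.

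Among the 16 genes of frizzled, LRP and other Wnt receptors, 13 were tested, with a median log2 fold change of 0.01. Besides Lrp5, the groups did not overlap in Fzd1 and Fzd4. That made 1 tested gene of this list higher and 2 lower without overlap, where 9.94% and 11.1% of all tested genes were. Fzd1 had a TPM of 2.97, 3.04 and 2.87 in WT and of 4.91, 3.84 and 3.84 in Mtg16 KO, and Fzd4 one of 5.19, 2.46 and 4.78 in WT and of 2.25, 2.29 and 2.19 in Mtg16 KO. These minor frizzled genes thus differed in opposite directions, with limma adjusted p of 0.353 for Fzd1 and 0.319 for Fzd4, and neither was called. Ryk and Ptk7, which encode Wnt co-receptors of other types, had overlapping groups and log2 fold changes of 0.05 and 0.26.

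**Figure D4:**
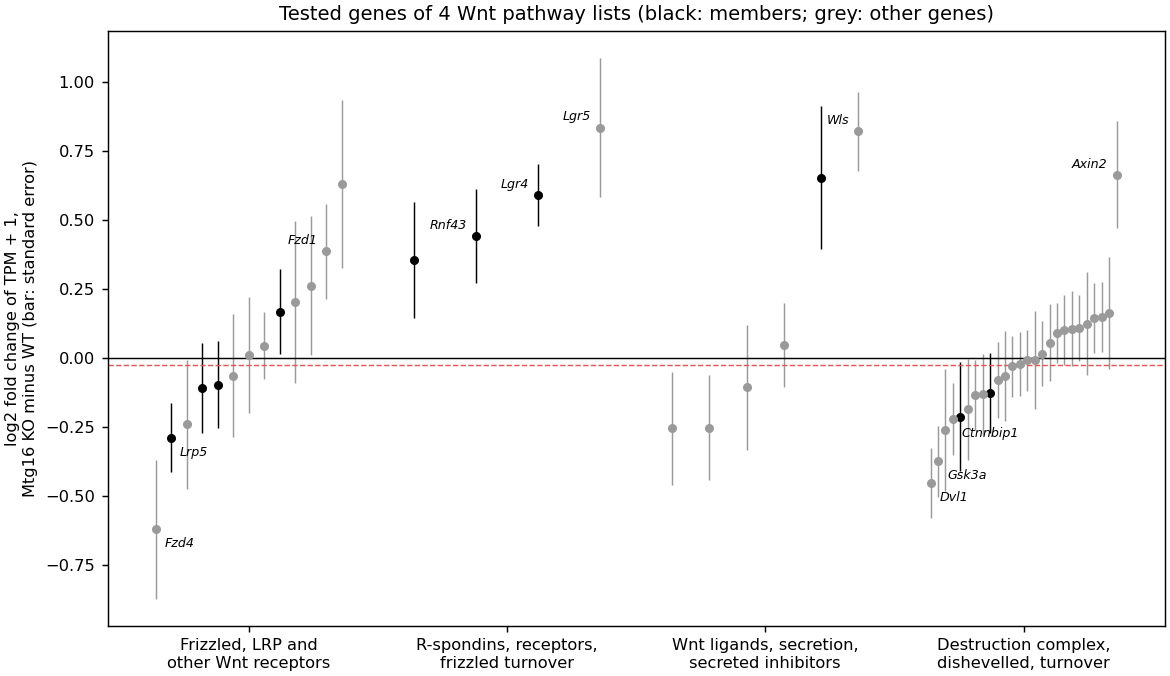
Log2 fold change with its standard error for every tested gene of the 4 pathway lists, members in black and other genes in grey, with names for genes whose groups do not overlap and a red dashed line at the median of all tested genes (-0.03). All 4 tested genes of the R-spondin list lie above 0 (0.35 to 0.83), while the 26 tested genes of the destruction complex list centre on -0.01.

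The libraries with the highest and lowest values of the members are given without the share over all tested genes, which was not computed. They are therefore not read as a trait of the members. On the main axis of variation over all tested genes (first principal component, 47.74%), WT replicate 1 (-47.75) and Mtg16 KO replicate 3 (36.34) were the outermost libraries. Mtg16 KO replicate 2 held the highest value of 6 members, Lgr4, Rnf43, Znrf3, Fzd5, Fzd7 and Wnt3. Mtg16 KO replicate 3 held the lowest value of 5, Fzd7, Lrp5, Lrp6, Ctnnb1 and Apc. WT replicate 1 was the lowest for Lgr4, Rnf43 and Znrf3 and the highest for Lrp6, Ctnnb1 and Apc. For Lgr4, all 3 WT libraries lay between 61.2 and 67.4 TPM.

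Markers of crypt cell types differed between the same libraries, and the part of the stem and Paneth cell markers in the members' values was not tested. The 12 enterocyte markers, led by Apoa1, Fabp2 and Apoa4, had a summed TPM of 13774 to 40638 in WT and of 6812 to 13285 in Mtg16 KO. All 12 had lower means in Mtg16 KO, 6 of them without overlap (11.1% of all tested genes were lower without overlap), and the median log2 fold change was -1.21. WT replicate 1 held 40638, against 13774 and 17186 in the other WT libraries. The 10 crypt base stem cell markers, led by Olfm4, Slc12a2 and Axin2, had a summed TPM of 911 to 1548 in WT and of 1664 to 2216 in Mtg16 KO, with a median log2 fold change of 0.50, all 10 with higher means and 5 without overlap (9.94% of all tested genes were higher without overlap). Lgr5 and Axin2 are among these 5 and also belong to the pathway lists above, so the lists are not separate sets of genes. The 9 Paneth cell markers other than defensins, led by Lyz1, Itln1 and Ang4, had a summed TPM of 2572 to 5899 in WT and of 6516 to 8296 in Mtg16 KO, all 9 with higher means and 5 without overlap, against the same 9.94%. No marker of these lists was called, and none was at 0 in every library.

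**Figure D5:**
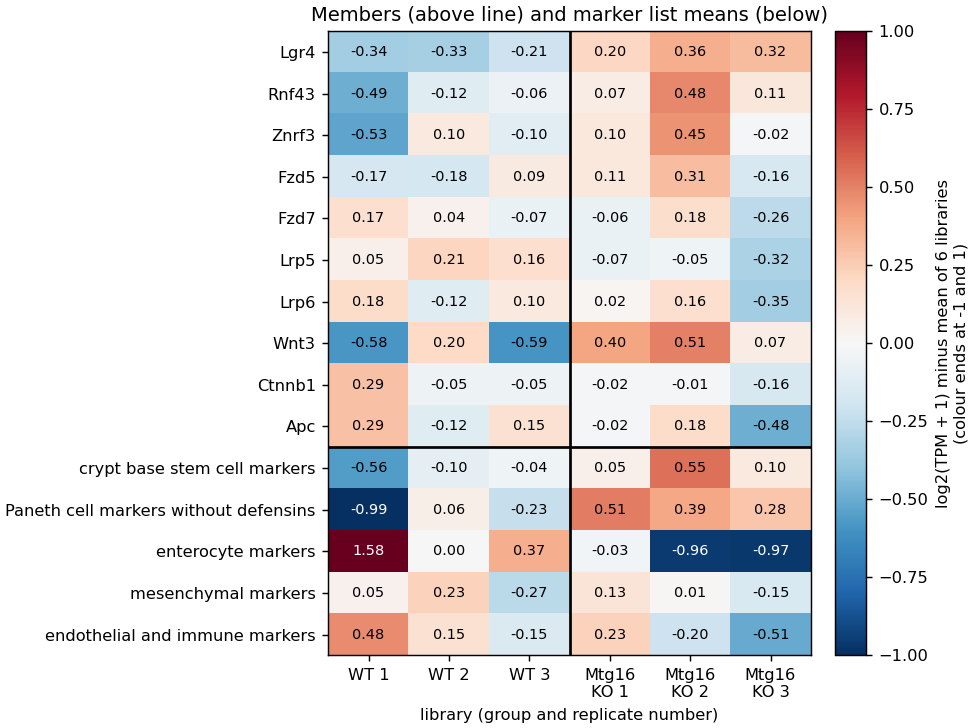
Deviation of log2(TPM + 1) from the mean of the 6 libraries for each member (above the line) and for the mean of 5 marker lists (below), with WT libraries on the left and Mtg16 KO libraries on the right. Lgr4 is below its mean in all 3 WT libraries (-0.34, -0.33 and -0.21) and above it in all 3 Mtg16 KO libraries, while enterocyte markers run from 1.58 in WT replicate 1 to -0.97 in Mtg16 KO replicate 3.

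With the mean level of the enterocyte markers in each library added to the model, a setting chosen after the values were seen, Lgr4 differed by 0.50, Rnf43 by 0.11, Znrf3 by -0.042 and Wnt3 by 0.36 on the log2 scale (limma adjusted p = 0.320, 0.875, 0.969 and 0.778). The same model gave a log2 difference of 0.14 for Fzd5, -0.01 for Fzd7, -0.33 for Lrp5, 0.09 for Lrp6, 0.12 for Ctnnb1 and 0.05 for Apc. No member was called in that model. The makeup of the crypt preparations and the genotype cannot be told apart in these 6 libraries, since the enterocyte score itself differs between the groups.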

How the data were processed

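RNA was sequenced from crypts of 3 WT and 3 Mtg16 KO mice, with 200 ng of RNA and 14 PCR cycles for each library after ribosomal RNA depletion. The authors deposited TPM values per gene symbol, rounded to 2 decimals, which sum to about 1000000 in every library. The submitters' processing notes name cutadapt 1.9.1, STAR 2.5.2a and RSEM 1.3.0 with the build mm10. The depth per library is unknown, so no interval that needs it is given. Count tests were not run here, since TPM values are not counts.

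Values were transformed as log2(TPM + 1), and 12268 genes whose TPM averaged 1 or more were tested with limma 3.58.1 in R 4.3.3 (eBayes with trend, no covariates, Benjamini-Hochberg adjustment over all tested genes, threshold 0.1). Ratios and single genes were compared by two-sided exact permutation tests. Positions and windows before gene starts come from RefSeq GRCm38.p6, the same assembly as mm10, in which 24076 of 24736 symbols had a position, and windows were searched for 6 of the 10 members. Alternatives were another pseudocount, other filters, other scalings, other moderation and weights, a threshold of 0.05, the replicate number as a block, each mouse left out, and the enterocyte marker score as a covariate.

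The text names the 10 members, Cbfa2t3, and from each pathway list the called genes, up to 6 with the highest mean TPM and those whose groups did not overlap. From each marker list it names the 3 most abundant genes and any at 0 throughout, and Lyz1 as a partner of Wnt3. The members and lists were chosen with earlier results of these data known. The labels call the samples biological triplicates.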

Additional observations from a re-analysis of the deposited data

How the results depend on the processing

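Lgr4, Rnf43, Fzd5, Wnt3 and Lrp5 kept the direction of their log2 fold change under every alternative that tested them. Wnt3, with a mean TPM of 4.18, was not tested under the filter of a mean TPM of at least 5. Without 1 mouse at a time, the log2 fold change lay between 0.55 and 0.63 for Lgr4 (limma adjusted p between 0.228 and 0.587), between 0.31 and 0.52 for Rnf43, between 0.52 and 0.91 for Wnt3, between -0.34 and -0.20 for Lrp5 and between 0.057 and 0.29 for Fzd5. No member was called in any of these fits, nor under the other scalings, filters and moderations. With array weights, under which 6.97% of all tested genes were called, 2 members were, Lgr4 (adjusted p = 0.0336) and Wnt3 (adjusted p = 0.0989). The same replicate numbers occur in both groups, and with them as a replicate block, under which 9.79% were called, 1 member was, Lgr4, at an adjusted p of 0.0282. In these fits Wls (adjusted p = 0.0216 with array weights and 0.0162 with the block), Lgr5 (0.0639 and 0.0512), Axin2 (0.0833 and 0.0509), Dvl1 (0.0860 and 0.0720) and Gsk3a (0.0944 and 0.0941) were called too. Same-numbered libraries are different mice, and across genes their deviations from the mean of each group had an r of 0.429, 0.0753 and 0.237. The second value is under the limit of 0.1 set for pairing, 5 of the 6 libraries correlated best with their own number, and the block is given as an alternative only.

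The number of called genes was 4, and it was 0 without a filter, 15 with a mean TPM of at least 5, 0 after median-ratio rescaling, 1 after quantile normalization, 0 without the 19 genes above 5000 TPM, 0 without the intensity trend, 20 with robust moderation, 855 with array weights, 1201 with the replicate block, 0 at a threshold of 0.05, 0 with the enterocyte score as a covariate and between 0 and 20 without 1 mouse. The counts at an unadjusted p under 0.05 in the fits with 0 calls were 2187 without a filter, 1818 after median-ratio rescaling, 1744 without the most abundant genes, 1754 without the trend, 1789 at the stricter threshold, 1267 with the enterocyte score as a covariate and 1062 without Mtg16 KO replicate 3. The number of members whose groups did not overlap lay between 3 and 6 without 1 mouse, where 27.7% to 38.7% of all tested genes did not overlap. It was 4 without WT replicate 3 (29.6% of all genes), with Fzd5 added, 5 without WT replicate 2 (32.5%), with Znrf3 and Wnt3 added, and 6 without Mtg16 KO replicate 3 (28.2%), with all of these added.

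Some small log2 fold changes changed sign. With array weights they were 0.074 for Fzd7, 0.00071 for Lrp6, 0.11 for Cbfa2t3, -0.067 for Kremen1 and -0.016 for Ryk. With the enterocyte score as a covariate, chosen after seeing the data, they were -0.042 for Znrf3, 0.086 for Lrp6, 0.12 for Ctnnb1 and 0.049 for Apc. Without 1 mouse they ranged from -0.21 to 0.0098 for Fzd7, from -0.22 to 0.038 for Lrp6, from -0.26 to 0.15 for Cbfa2t3, from -0.038 to 0.12 for Kremen1, from -0.22 to 0.024 for Porcn, from -0.013 to 0.41 for Ptk7 and from -0.025 to 0.12 for Ryk. The log2 difference of a ratio then ranged from -0.12 to 0.042 for Znrf3/Rnf43, from -0.22 to 0.053 for Apc/Ctnnb1, from -0.25 to 0.0054 for Wnt3/Lyz1, from 0.058 to 0.30 for Lrp6/Lrp5, from -0.43 to -0.17 for Fzd7/Fzd5 and from 0.059 to 0.28 for Lgr4/(Rnf43+Znrf3). The median log2 fold change ranged from -0.085 to 0.092 for the receptor list, from -0.13 to 0.070 for the ligand list and from -0.0425 to 0.029 for the destruction complex list, which was 0.0053 after median-ratio rescaling. The cause of these differences was not tested.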
